A study of Mus musculus with 12 samples.

Results

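The 10 platelet-lineage genes *Vwf*, *Itgb3*, *Itga2b*, *Pf4*, *Gp1bb*, *Gp5*, *Gp6*, *Gp9*, *Treml1*, and *Ppbp* were followed in mouse hematopoietic stem and progenitor cells (HSPCs) with and without knockdown of the cohesin subunit gene *Rad21*. They were taken by symbol, through their Ensembl identifiers, from RNA-seq counts of 46078 genes, and all 10 were listed there. Lineage-negative, Sca-1+, c-Kit+ (LSK) cells from the bone marrow of C57BL/6 mice were infected with a lentivirus that carried GFP and an shRNA against *Rad21* (shRad21) or, as control, against luciferase (shLuci). The virus, the GFP, and an shRNA were therefore shared by all 4 groups, each of which held 3 libraries. In culture, GFP+CD48-Sca-1+ cells were sorted on day 3 from medium with cytokines, so c-Kit was not part of this gate. In vivo, GFP+ LSK cells (KSL in the labels) were reisolated from transplanted recipients 3 mo after transplantation by the labels, and the text of the study gives a later time. Neither the age of the mice nor the origin of the 3 libraries of a group, from separate cultures or animals or from 1 pool, was stated, so p values measure the spread between these libraries.

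Platelets are shed by megakaryocytes, large cells of the bone marrow that descend from hematopoietic stem cells (HSCs). Some HSCs already transcribe genes of this lineage, and HSCs that express *Vwf* are known for a bias toward platelet production. The proteins studied here fall into 4 roles: the GPIb-IX-V receptor for von Willebrand factor (*Gp1bb*, *Gp5*, *Gp9*), the fibrinogen receptor integrin alphaIIb-beta3 (*Itga2b*, *Itgb3*), the collagen receptor GPVI and the TREM-like receptor TLT-1 (*Gp6*, *Treml1*), and proteins secreted from platelet granules (*Vwf*, *Pf4*, *Ppbp*).

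Libraries held between 15235129 and 29846689 counts, so that a floor of 3 counts lay at 0.101 to 0.197 CPM (counts per 1000000 reads counted). *Rad21* itself had 384, 419, and 405 CPM in the shLuci and 154, 137, and 128 CPM in the shRad21 libraries in culture (log2 fold change -1.52). In vivo, it had 118, 124, and 125 against 43.4, 47.7, and 43.6 CPM (log2 fold change -1.43), so each library matched its label. Of 11 HSC markers, all were detected in each group, with sums between 2637 and 3546 CPM. *Cd34*, by which the study gates multipotent progenitors and not HSCs, had the highest mean of the list in each group (947 to 1419 CPM). The cells thus carried transcripts of HSPCs, and the sums do not measure HSCs alone. Of other blood cells, 10 neutrophil and monocyte genes had sums of 42.4 to 172 CPM in culture, against 1200 to 2258 CPM in vivo. Culture libraries were made with TruSeq and in vivo libraries with SMART-Seq v4 and Nextera XT, so kit, sort, and setting cannot be told apart between them. All were libraries of bulk cells, in which fewer cells that express a gene and less of its RNA per cell cannot be told apart.

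In the GRCm38 assembly, the 10 genes lie on 6 chromosomes. *Ppbp* (ENSMUSG00000029372, chr5:90768518-90770063, plus strand) and *Pf4* (ENSMUSG00000029373, chr5:90772435-90773383, plus strand), both chemokine genes, are separated by 2371 bases. *Itga2b* (ENSMUSG00000034664, chr11:102453297-102470122, minus strand) and *Itgb3* (ENSMUSG00000020689, chr11:104608000-104670476, plus strand), which encode the partners of 1 integrin, are 2.14 megabases apart. *Gp5* (ENSMUSG00000047953, chr16:30307685-30310779, minus strand), *Gp9* (ENSMUSG00000030054, chr6:87778072-87779768, plus strand), and *Gp1bb* (ENSMUSG00000050761, chr16:18620317-18622403, minus strand) encode parts of 1 receptor from 2 chromosomes. *Treml1* (ENSMUSG00000023993) lies at chr17:48359916-48367176 on the plus strand, *Vwf* (ENSMUSG00000001930) at chr6:125546774-125686679 on the plus strand, and *Gp6* (ENSMUSG00000078810) at chr7:4363965-4397744 on the minus strand.

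RefSeq promoter sequences (GRCm38.p6, 250 bases before to 50 bases after the start) were found for 8 of the 10 genes, all but *Vwf* and *Itgb3*. They were searched on both strands for short core motifs of 3 factor families that act in megakaryocytes, GATA (GATAA), ETS (GGAAG), and MEIS (TGACAG). An ETS core was found in all 8 promoters, and in 71.3% of 32544 mouse promoters of the same length. GATA and MEIS cores were each found in 4 of the 8, against 25.3% and 19.1% of all promoters. The 250 bases before the start are given, 5′ to 3′ on the strand of the gene and with the cores of either strand in capitals, for a pair of receptor genes that passed the test as higher in both settings and for the chemokine pair that was lower in culture. *Gp5* is at chr16:30310782-30311031 (minus), *Gp9* at chr6:87777820-87778069 (plus), *Pf4* at chr5:90772185-90772434 (plus), and *Ppbp* at chr5:90768268-90768517 (plus).
Gp5: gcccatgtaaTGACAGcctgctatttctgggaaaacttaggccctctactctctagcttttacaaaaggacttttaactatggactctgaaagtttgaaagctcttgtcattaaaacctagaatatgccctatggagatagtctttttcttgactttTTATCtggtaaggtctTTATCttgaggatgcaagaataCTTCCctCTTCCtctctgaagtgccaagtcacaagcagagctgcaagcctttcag
Gp9: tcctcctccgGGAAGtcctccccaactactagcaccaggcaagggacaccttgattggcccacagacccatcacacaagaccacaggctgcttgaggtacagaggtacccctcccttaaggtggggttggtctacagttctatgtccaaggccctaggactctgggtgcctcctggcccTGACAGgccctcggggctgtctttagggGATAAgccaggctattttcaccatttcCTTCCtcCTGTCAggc
Pf4: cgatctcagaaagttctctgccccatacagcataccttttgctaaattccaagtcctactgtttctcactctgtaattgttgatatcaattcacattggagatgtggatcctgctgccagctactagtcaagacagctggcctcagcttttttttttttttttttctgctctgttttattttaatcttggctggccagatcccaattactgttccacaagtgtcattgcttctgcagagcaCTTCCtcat
Ppbp: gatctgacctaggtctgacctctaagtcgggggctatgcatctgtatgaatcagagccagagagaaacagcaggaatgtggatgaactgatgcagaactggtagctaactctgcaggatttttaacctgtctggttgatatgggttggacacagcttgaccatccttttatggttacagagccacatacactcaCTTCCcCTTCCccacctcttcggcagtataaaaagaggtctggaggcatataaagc
The *Gp5* promoter held 2 GATA, 2 ETS, and 1 MEIS cores, and that of *Gp9* 1, 2, and 2. In the *Ppbp* window 2 ETS cores were found, and the *Pf4* window held 1 ETS core in the bases shown and 1 GATA core behind the start. *Itga2b* had 4 ETS cores and 1 MEIS core, *Treml1* 1 ETS core and 1 MEIS core, and *Gp1bb* 3 ETS cores, all without a GATA core. *Gp6* had 1 GATA and 1 ETS core. These matches describe letters only, since binding was not measured.

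Knockdown of *Rad21* went with higher levels of most platelet-lineage genes in both settings. In culture, 6 of the 8 genes that could be tested were higher in shRad21 cells (*Gp5*, *Treml1*, *Itga2b*, *Vwf*, *Itgb3*, and *Gp9*), and 2 were lower (*Pf4* and *Ppbp*), in the quasi-likelihood test of edgeR, with p values adjusted over all genes by Benjamini-Hochberg and a threshold of 0.05. Of all 15543 genes tested in culture, 6.18% were called higher and 8.06% lower. In vivo, 7 of 9 tested genes were higher (the same 6 and *Gp1bb*), none was lower, and *Pf4* and *Ppbp* did not pass the test, against a background of 5.65% higher and 5.32% lower among 15938 genes. With DESeq2, too, none was lower in vivo, and at an unadjusted p under 0.05 the count of lower genes was 0. The members that passed the filter on low counts had a median log2 fold change of 0.76 in culture and 1.11 in vivo, beside medians of -0.004 and -0.002 over all genes. Called higher in both settings were 6 of the 8 genes tested in both, and 271 (1.87%) of 14524 genes overall. *Gp6* and, in culture, *Gp1bb* were too low to test.

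**Figure D1:**
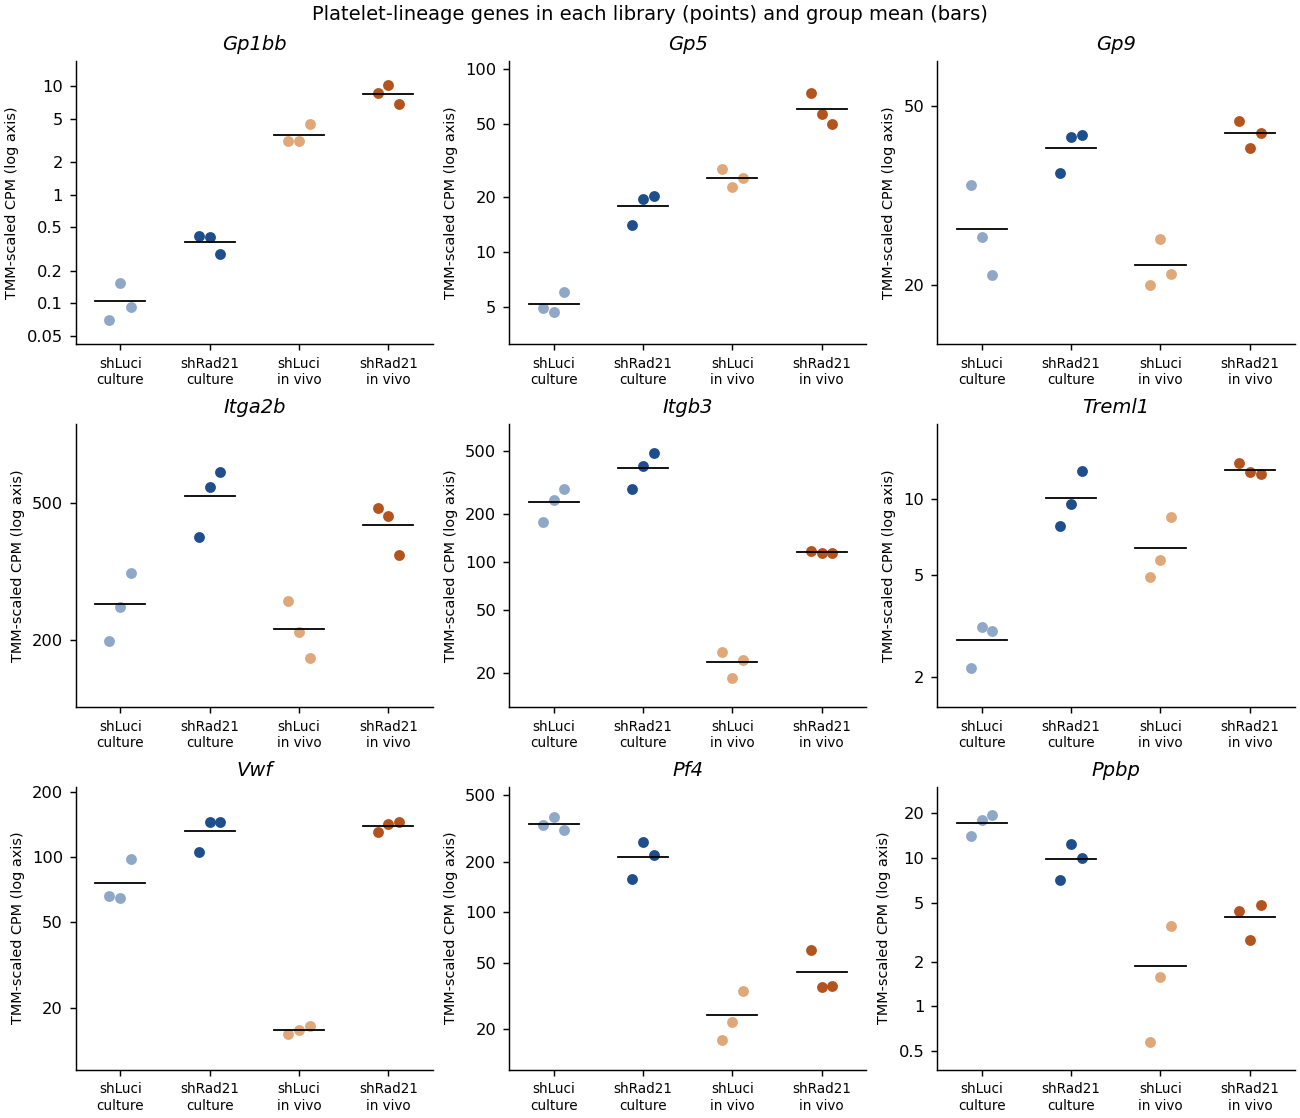
TMM-scaled CPM (log axis) of 9 platelet-lineage genes in each of the 12 libraries; points are libraries and bars the mean of 3. *Gp6*, with 0 counts throughout, is left out. *Vwf* in vivo sits between 15.1 and 16.5 CPM in shLuci and between 130 and 146 CPM in shRad21 libraries.

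In culture the values of the groups did not overlap for any of the 8 tested genes, 6 with the shRad21 libraries above and 2 with them below. The same was true of 15.3% (above) and 16.2% (below) of all genes. In vivo, 8 of 9 tested genes had all shRad21 libraries above all shLuci libraries, as had 13.3% of all genes, and for none were all below, as for 15.8% of all genes. The exception was *Ppbp*. Leaving out 1 library had more effect in culture than in vivo. Without shLuci culture replicate 2, 3 genes (*Gp5*, *Treml1*, and *Itga2b*) were still called higher and none lower. In vivo, between 7 and 9 genes were called higher with any 1 library left out.

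**Figure D2:**
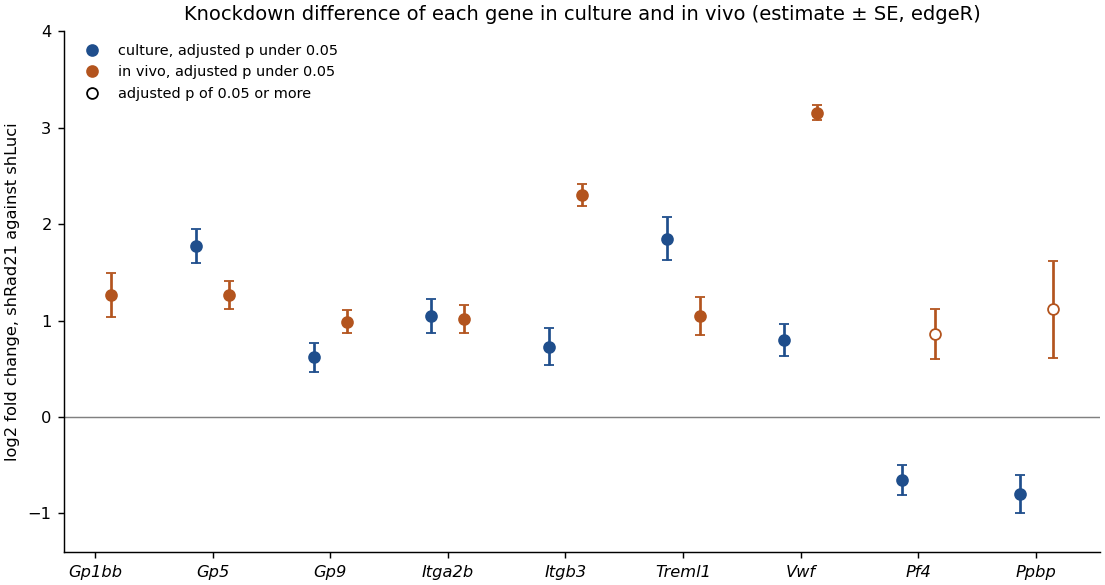
Log2 fold change of shRad21 against shLuci cells with its standard error (edgeR) for 9 genes, in culture (blue) and in vivo (brown); filled symbols passed an adjusted p of 0.05. *Pf4* and *Ppbp* lie below 0 in culture and above 0 in vivo, and *Gp1bb* was tested in vivo only.

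Among the receptor genes for von Willebrand factor, *Gp5*, whose product is cleaved from platelets by thrombin, was higher after knockdown in both settings. The shLuci libraries had 4.91, 4.67, and 6.07 CPM and the shRad21 libraries 14.1, 19.4, and 20.1 CPM, a log2 fold change of 1.77 (SE 0.175, adjusted p = 0.000127 from edgeR). In vivo, 28.2, 22.6, and 25.2 CPM in shLuci libraries stood against 73.7, 56.7, and 49.9 CPM in shRad21 libraries (log2 fold change 1.26, SE 0.144, adjusted p = 0.000589 from edgeR). Every shRad21 library lay above every shLuci library of its setting, and all in vivo libraries lay above all culture libraries. *Gp9*, which encodes the small GPIX subunit, had 33.3, 25.6, and 21.02 CPM in shLuci and 35.4, 42.7, and 43.1 CPM in shRad21 libraries in culture (log2 fold change 0.62, SE 0.152, adjusted p = 0.0202 from edgeR). In vivo, it had 19.98, 25.2, and 21.1 against 46.4, 40.3, and 43.5 CPM (log2 fold change 0.99, SE 0.118, adjusted p = 0.000773 from edgeR). Its groups were apart in both settings, but in culture the highest shLuci and the lowest shRad21 library were close. The culture call for *Gp9* was lost without shLuci replicate 2 (adjusted p = 0.0875), without shRad21 replicate 2 (0.0824), or without shRad21 replicate 3 (0.0715), all from edgeR.

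*Gp1bb*, which encodes the beta chain of GPIb, was nearly absent in culture. The shLuci libraries held 1, 3, and 2 counts and the shRad21 libraries 10, 8, and 8 counts. The ratio of the summed, scaled counts was 3.31, with an exact 95% interval for counting error (Clopper-Pearson) from 1.33 to 9.84, and the gene was too low for the test there. In vivo, 3.11, 3.08, and 4.47 CPM in shLuci cells stood against 8.52, 10.1, and 6.73 CPM in shRad21 cells (log2 fold change 1.27, SE 0.225, adjusted p = 0.00617 from edgeR). The groups did not overlap. Of its 2087 exonic bases, 1938 (92.9%) are also exonic in *Sept5* or a read-through gene (Gm49601) on the same strand, so reads there could be counted on neither, and the level of *Gp1bb* is uncertain. *Sept5*, a septin gene, was itself higher in shRad21 cells in vivo (0.934, 0.706, and 1.11 against 2.88, 2.34, and 3.53 CPM, log2 fold change 1.68, adjusted p = 0.0064 from edgeR) but had a log2 fold change of 0.04 in culture (adjusted p = 0.927 from edgeR). Its part in the counts of *Gp1bb* was not tested.

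Both integrin genes were higher after knockdown, in unequal measure. *Itga2b* encodes the alphaIIb chain (CD41), also found on early HSPCs. It had 198, 249, and 313 CPM in shLuci and 398, 554, and 612 CPM in shRad21 libraries in culture (log2 fold change 1.05, SE 0.177, adjusted p = 0.00274 from edgeR), and its call held without any 1 library (adjusted p up to 0.0222). In vivo, the values were 260, 210, and 177 against 482, 457, and 352 CPM (log2 fold change 1.01, SE 0.147, adjusted p = 0.00226 from edgeR). The groups were apart in both settings, by 2.07-fold in culture and 2.02-fold in vivo. *Itgb3* encodes the beta3 chain, which also pairs with the alphaV chain in other cells. In culture it had 178, 245, and 287 CPM in shLuci and 290, 402, and 483 CPM in shRad21 libraries (log2 fold change 0.73, SE 0.19, adjusted p = 0.0262 from edgeR). In vivo, it had 27.4, 18.8, and 24.2 against 117, 115, and 113 CPM (log2 fold change 2.31, SE 0.113, adjusted p = 8.82e-06 from edgeR). The lowest shRad21 library in culture was just above the highest shLuci library, whereas in vivo the groups were far apart. The culture call for *Itgb3* was lost with DESeq2 (adjusted p = 0.0597) and, in edgeR, without shLuci replicate 1 (0.0786), shLuci replicate 2 (0.0867), shRad21 replicate 2 (0.0705), or shRad21 replicate 3 (0.087).

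Of the 2 immunoglobulin-domain receptors, *Treml1* was called higher in both settings and *Gp6* was not seen. *Treml1* encodes TLT-1, a receptor stored in platelet granules and brought to the surface on activation. It had 2.18, 3.13, and 3.04 CPM in shLuci and 7.79, 9.55, and 12.8 CPM in shRad21 libraries in culture (log2 fold change 1.85, SE 0.224, adjusted p = 0.000424 from edgeR). In vivo, the values were 4.94, 5.75, and 8.45 against 13.8, 12.8, and 12.5 CPM (log2 fold change 1.04, SE 0.197, adjusted p = 0.00834 from edgeR). No shRad21 library was as low as any shLuci library of its setting. *Gp6*, which encodes the collagen receptor GPVI of megakaryocytes and platelets, had 0 counts in all 12 libraries. A count of 0 allows up to between 0.101 and 0.197 CPM per library, for counting error only, so the gene was not detectable at this depth in either setting.

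*Vwf* had the largest log2 fold change with knockdown of the 9 genes tested in vivo. It encodes von Willebrand factor, the multimeric protein that bridges platelets and the injured vessel wall, and it is also made by endothelial cells. In vivo, the shLuci libraries had 15.1, 15.8, and 16.5 CPM and the shRad21 libraries 130, 142, and 146 CPM, an 8.92-fold difference (log2 fold change 3.16, SE 0.0792, adjusted p = 8.14e-08 from edgeR). In culture, 66.4, 64.7, and 98.2 CPM stood against 106, 146, and 146 CPM (log2 fold change 0.80, SE 0.166, adjusted p = 0.00863 from edgeR). The shRad21 libraries of both settings thus overlapped in CPM, while the shLuci libraries in vivo lay far under those in culture. The culture call was lost without shLuci replicate 2 (adjusted p = 0.0534), and the in vivo call held without any 1 library. As for endothelial RNA, *Sox17* had 0 counts in all 12 libraries, *Cdh5* had 0, 4, and 0 counts in shLuci and 2, 2, and 1 in shRad21 libraries in vivo, and the summed CPM of 10 endothelial markers was between 295 and 329 in shLuci and between 396 and 415 in shRad21 libraries in vivo. Of these markers, 4 of 7 tested in vivo and 2 of 7 in culture were called higher (4 of them in culture with the replicate block), beside 5.65% and 6.18% of all genes. *Emcn* and *Tek*, which HSCs also express, were called in both settings, and *Tie1* and *Cldn5* in vivo. *Tie1* had 124 ± 18 and 196 ± 10.8 CPM in shLuci and shRad21 cells in vivo. It had 235 ± 30.5 CPM in shLuci cells in culture, where *Cldn5* had 0 counts. *Pecam1* went the other way in vivo (126 ± 30.6 to 102 ± 15.6 CPM, SD, n = 3 each) and was not called. *Cldn5*, a tight junction gene of endothelium, had 4, 2, and 5 counts in shLuci and 60, 40, and 66 counts in shRad21 libraries in vivo (log2 fold change 3.89). It passed the filter there through the shRad21 libraries alone, so it could be called only as higher. In culture it had between 0 and 2 counts. *Kdr* had 1.47 ± 1.32 against 4.09 ± 0.576 CPM in vivo (SD, n = 3 each, adjusted p = 0.171 from edgeR). Their part in the level of *Vwf* was not tested.

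The platelet chemokine genes *Pf4* and *Ppbp* did not follow the other genes in culture. *Pf4* encodes platelet factor 4 (CXCL4), stored in alpha granules. It had 332, 373, and 311 CPM in shLuci and 158, 264, and 221 CPM in shRad21 libraries in culture (log2 fold change -0.65, SE 0.155, adjusted p = 0.0171 from edgeR). *Ppbp*, its neighbor, encodes pro-platelet basic protein (CXCL7) and had 14.0, 17.9, and 19.5 against 7.09, 12.5, and 10 CPM (log2 fold change -0.80, SE 0.198, adjusted p = 0.0208 from edgeR). For both, all shRad21 libraries lay under all shLuci libraries. Neither call held without shLuci culture replicate 2 (adjusted p = 0.0858 for *Pf4* and 0.0843 for *Ppbp*) or in a model of all 12 libraries (0.0741 and 0.185), and that of *Ppbp* was also lost without shRad21 replicate 1 (0.0573) or 3 (0.0565), all from edgeR.

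In vivo, both chemokine genes had a positive log2 fold change that did not pass the test. *Pf4* had 17.4, 22.2, and 33.9 CPM in shLuci and 60.02, 36.0, and 36.2 CPM in shRad21 libraries (log2 fold change 0.86, SE 0.256, adjusted p = 0.0621 from edgeR). The groups did not overlap, but 2 shRad21 libraries lay close to the highest shLuci library. *Ppbp* had 0.578, 1.56, and 3.45 against 4.40, 2.79, and 4.85 CPM (log2 fold change 1.11, SE 0.505, adjusted p = 0.214 from edgeR), and its groups overlapped. In the same shLuci library, replicate 3, both genes were highest of their group. Without it both passed the test (adjusted p = 0.0199 for *Pf4* and 0.0341 for *Ppbp*). With every counted gene tested, the adjusted p values were 2.36e-11 and 0.00602, but the estimates hardly moved (log2 fold changes 0.88 and 1.14). The p values of that fit are therefore not taken as a measure of the spread between libraries. *Pf4* alone also passed with genes of at least 10 counts in every library (0.0395) and in the model of all 12 libraries (0.0354), all from edgeR.

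The difference of both knockdown effects was tested as an interaction in 1 fit of all 12 libraries, which shares the spread of 4 groups. Of 9 genes tested, 3 had a lower effect in culture than in vivo, and none a higher one, against 3.03% and 1.64% of 17050 genes. *Gp1bb*, 1 of the 9, passed the filter through the in vivo libraries alone and had too few counts in culture for a test there. The difference, culture minus in vivo on the log2 scale, was -2.35 for *Vwf* (SE 0.215, adjusted p = 4.78e-05 from edgeR), -1.57 for *Itgb3* (SE 0.261, adjusted p = 0.00306), and -1.51 for *Pf4* (SE 0.333, adjusted p = 0.0178). *Vwf* and *Itgb3* were higher after knockdown in both settings, with the larger difference in vivo, whereas for *Pf4* the estimates had opposite signs. For *Ppbp* the difference was -1.90 (SE 0.553, adjusted p = 0.067 from edgeR, and 0.0199 with the replicate block). It also passed the test with genes of at least 10 counts in every library (0.04) and without shLuci in vivo replicate 3 (0.00502). With every counted gene tested its adjusted p was 6.11e-08 from edgeR at nearly the same estimate (-1.92), with the limit given above for that fit. The call for *Pf4* was lost without shLuci culture replicate 2 (adjusted p = 0.0524). For *Gp5*, *Gp9*, *Itga2b*, *Treml1*, and *Gp1bb* no difference was called, with estimates of 0.52, -0.37, 0.04, 0.82, and 0.44 and SEs of 0.242, 0.205, 0.262, 0.319, and 0.506. DESeq2, too, called no member with a higher effect in culture, and at an unadjusted p under 0.05 in edgeR there were 2, *Gp5* and *Treml1*.

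Between control cells of the settings, 4 members were higher in shLuci cells in culture and 2 lower, of 8 tested without *Gp1bb*, which passed the filter through the in vivo libraries alone. As 37.1% of 17050 genes were called in each direction, these shares are near the background. *Pf4* was higher in culture by 3.79 on the log2 scale (SE 0.257, adjusted p = 4.72e-09 from edgeR), *Itgb3* by 3.33 (SE 0.201), *Ppbp* by 3.19 (SE 0.412), and *Vwf* by 2.27 (SE 0.161). *Gp5* was lower in culture by 4.82-fold (log2 fold change -2.27, adjusted p = 3.25e-08 from edgeR) and *Treml1* by 2.27-fold (log2 fold change -1.18, adjusted p = 0.000396). *Gp1bb* had 232 counts in the 3 shLuci libraries in vivo and 6 in culture, a ratio of scaled counts of 32.8 with an exact 95% interval for counting error from 14.9 to 90.4. *Itga2b* and *Gp9* had estimates of 0.24 and 0.26 with adjusted p values of 0.266 and 0.124 from edgeR. With every counted gene tested these were 0.0106 and 0.0435 at nearly the same estimates (0.26 and 0.29), with the same limit on that fit. *Gp9* also passed without shLuci culture replicate 3 (adjusted p = 0.016 from edgeR). Scaling by library size alone moved the median of all genes by -0.17 in this comparison and upper-quartile scaling by -0.12, and no member changed sign with either. These controls are also the reference of both knockdown comparisons, which therefore share libraries with this one.

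Levels of different genes were compared per kilobase of exon, on the scale of TMM-scaled CPM per kilobase, for the 8 genes other than *Gp6* and *Gp1bb*. In shLuci cells in culture, *Pf4* stood far above the rest at 470 ± 43.7 (SD, n = 3), followed by *Itga2b* (46.5 ± 10.5), *Itgb3* (40.2 ± 9.31), and *Gp9* (30.2 ± 7.03), whose neighboring ranges overlapped. *Ppbp* (15.8 ± 2.63) and *Vwf* (4.76 ± 1.18) came next, each apart from its neighbors, and *Gp5* (2.38 ± 0.341) and *Treml1* (1.98 ± 0.376) were lowest, with overlapping ranges. After knockdown in culture the lowest 4, *Ppbp*, *Vwf*, *Gp5*, and *Treml1*, lay between 7.18 and 9.1 in the mean and each overlapped the next. *Pf4* remained first at 297 ± 74.2 (SD, n = 3) and *Itga2b* the second at 95.6 ± 20.3.

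In vivo the order was another. In shLuci cells, *Itga2b* (39.5 ± 7.69, SD, n = 3), *Pf4* (34.0 ± 11.8), and *Gp9* (25.1 ± 3.13) led with overlapping ranges, and *Vwf* was last at 0.985 ± 0.0442, overlapping *Ppbp* (1.72 ± 1.35). *Gp5* (11.5 ± 1.28) was the fourth, apart from both neighbors. In shRad21 cells the first 4 places were held by the same genes, *Itga2b* at 78.9 ± 12.7, *Pf4* at 61.2 ± 19.1, *Gp9* at 49.3 ± 3.43, and *Gp5* at 27.3 ± 5.57. *Itgb3* (19.5 ± 0.279) stood above *Treml1* (9.28 ± 0.491), and *Vwf* (8.69 ± 0.507) above *Ppbp* (3.70 ± 1.0), where in shLuci cells the means of both pairs were in the reverse order with overlapping ranges. The lengths are unions of all annotated exons, 16064 bases for *Vwf* and 5454 for *Itga2b*, against 8834 and 3437 bases for their longest transcripts. With the latter, all 8 genes kept their place in shLuci cells in culture, 4 in shRad21 cells in culture, and 6 in each group in vivo. *Vwf* then lay above *Ppbp* in shLuci cells in vivo as well (1.79 against 1.72), so its last place there and the change of order after knockdown depend on the length used. In shRad21 cells, *Vwf* then stood at 15 in culture, above *Ppbp* (9.1), and at 15.8 in vivo, above *Treml1* (10.5).

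**Figure D3:**
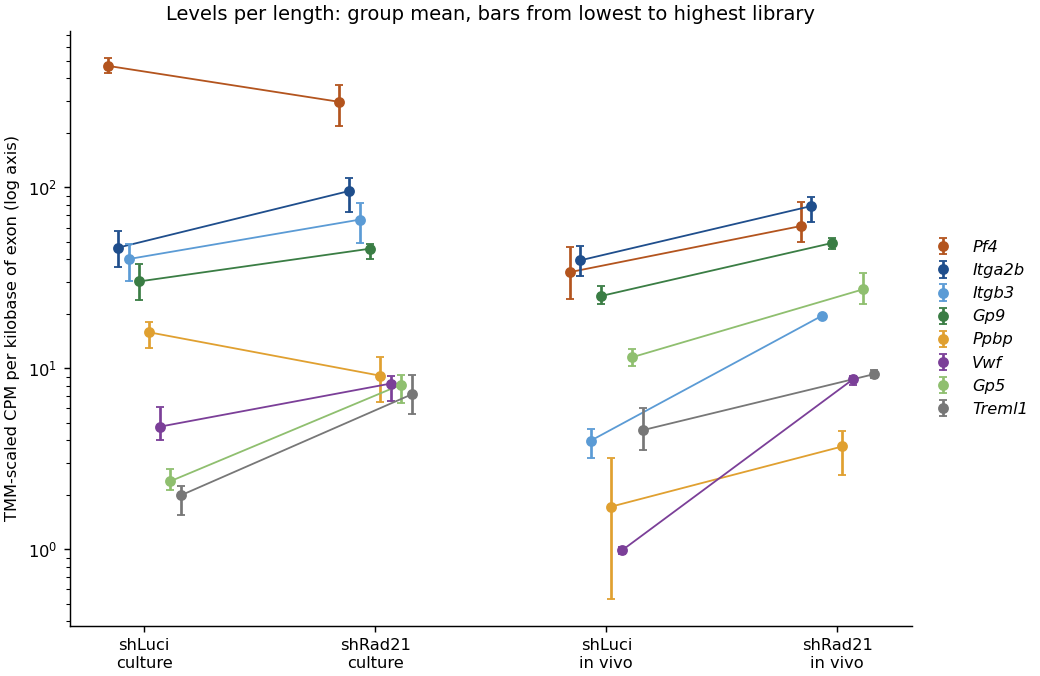
TMM-scaled CPM per kilobase of exon (log axis) of 8 genes in the 4 groups; points are means of 3 libraries, bars run from the lowest to the highest library, and lines join shLuci and shRad21 cells of a setting. *Pf4* is first in culture, and *Vwf* is last in shLuci cells in vivo, where *Ppbp* is last if the longest transcript is taken as length.

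Ratios of these levels within functional pairs are free of library depth. *Itga2b* over *Itgb3*, the partners of the fibrinogen receptor, was 1.20, 1.10, and 1.18 in shLuci and 1.49, 1.49, and 1.37 in shRad21 libraries in culture. In vivo, it was 10.3, 12.1, and 7.88 in shLuci and 4.47, 4.31, and 3.36 in shRad21 libraries. The groups did not overlap in either setting, with the knockdown group higher in culture and lower in vivo. With the longest transcripts as length, chosen after the data were seen, each of these ratios was 1.56 times as large, between 1.71 and 1.87 in shLuci cells in culture. *Gp9* over *Gp5* ranged from 8.63 to 16.9 in shLuci and from 5.34 to 6.28 in shRad21 libraries in culture, and from 1.77 to 2.79 and from 1.57 to 2.18 in vivo. *Pf4* over *Ppbp* was between 11.2 and 45.2 over all 12 libraries, and shLuci and shRad21 libraries overlapped in both settings. These ratios were not tested and depend on the annotated lengths.

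**Figure D4:**
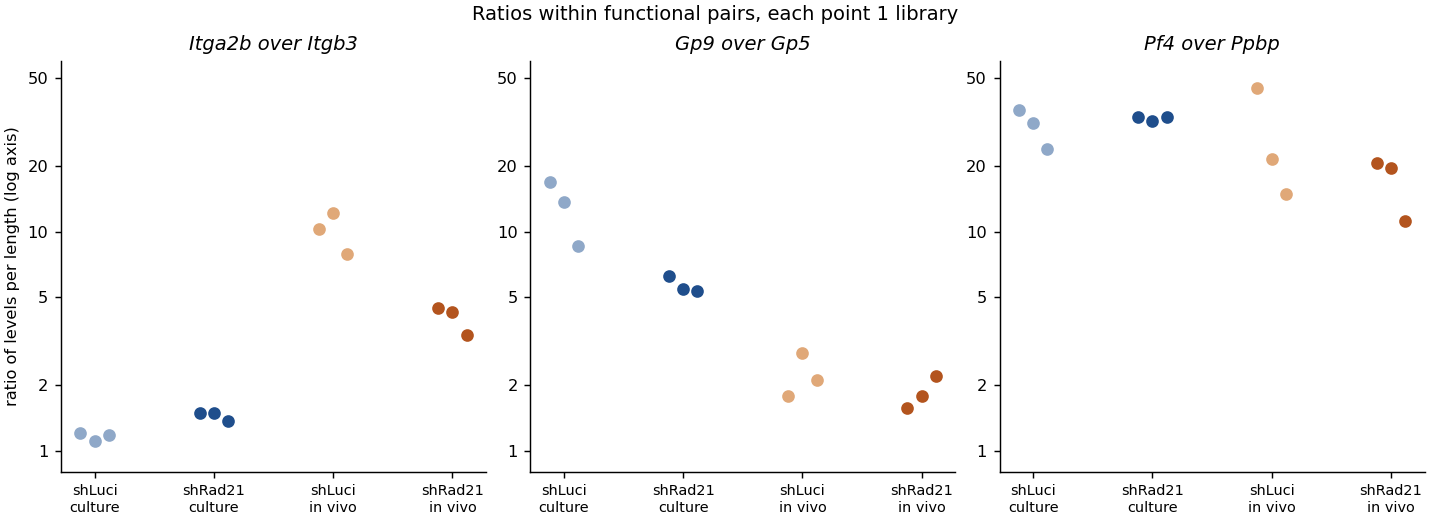
Ratio of levels per length (log axis) within 3 pairs of genes, with 1 point per library. *Itga2b* over *Itgb3* lies at 1.10 to 1.49 in culture and at 3.36 to 12.1 in vivo, and *Pf4* over *Ppbp* overlaps between shLuci and shRad21 cells in both settings.

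Genes whose profile over the 12 libraries was most like that of a member were sought among 12799 genes, by the root-mean-square difference of centered log2 CPM. For *Vwf* they were *Wwtr1* (0.268), which encodes the transcriptional coactivator TAZ, *Scrn1* (0.354), and *Efna1* (0.443), an ephrin ligand. *Wwtr1* had mean levels of 7.97 and 12.6 CPM in shLuci and shRad21 cells in culture and of 1.73 and 13.3 CPM in vivo. *Itga2b* was most like *Casp12* (0.241) and 4930556M19Rik (0.246). For *Pf4*, *Arhgef10l* (0.277), *Igsf3* (0.29), and *Tnk2* (0.335) were closest. The 12 libraries fall into 4 groups, and the settings differ in kit and sort, so this likeness is a description only.

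Other genes of the lineage were counted in 5 lists. The shares of all tested genes to set beside each list were 6.18% called higher and 8.06% lower in culture, and 5.65% and 5.32% in vivo. Of 15 megakaryocyte transcription factor genes, 8 were called higher and 1 lower in culture, and again 8 and 1 in vivo, with median log2 fold changes of 0.31 and 0.29, beside -0.004 and -0.002 over all genes. *Gata2*, *Fli1*, *Tal1*, and *Meis1* were called higher in both settings. *Gata1*, the central factor of erythroid and megakaryocytic cells, had 3.15 ± 1.66 CPM in shLuci and 10.3 ± 4.34 CPM in shRad21 cells (SD with n = 3) in culture (log2 fold change 1.67, adjusted p = 0.0143 from edgeR). In vivo, *Gata1* was not called, with 31.5 ± 9.64 CPM in shLuci and 34.5 ± 13.3 CPM in shRad21 cells (SD with n = 3). *Gfi1b*, a transcriptional repressor that both lineages require, was lower in culture (82.9 ± 11.3 to 43.3 ± 4.80 CPM, adjusted p = 0.000546) and higher in vivo (63.0 ± 10.8 to 94.6 ± 23.3 CPM, adjusted p = 0.0475), SD with n = 3 each, and its effects differed by -1.52 (log2, adjusted p = 0.00189 from edgeR). The count of higher factors fell to 5 without shLuci culture replicate 2, shRad21 culture replicate 2, or shRad21 culture replicate 3, and in vivo to 4 without shLuci replicate 2 or shRad21 replicate 1 or 3, and to 5 without shLuci replicate 1. The lower call in vivo, *Mef2c*, which was higher in culture, was lost with the replicate block and without any 1 in vivo library but shLuci replicate 3.

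Among 23 other platelet receptor genes, 6 of 17 tested were higher and 2 lower in culture (median 0.06), and 8 of 20 were higher and 1 lower in vivo (median 0.10). *Gp1ba*, the ligand-binding chain of the same complex as *Gp1bb*, *Gp5*, and *Gp9*, had 10.5 ± 4.39 and 44.6 ± 14.2 CPM (SD, n = 3 each) in shLuci and shRad21 cells in culture (log2 fold change 2.07, adjusted p = 0.000907 from edgeR) and 10.4 ± 2.35 and 17.3 ± 2.85 CPM in vivo (log2 fold change 0.76, adjusted p = 0.028). *F2rl2*, a thrombin receptor gene, had the largest rise of the list in culture (6.17 ± 1.24 to 43.5 ± 7.70 CPM, log2 fold change 2.83, adjusted p = 1.43e-05 from edgeR). *Esam*, a junction protein of platelets, endothelium, and HSCs, rose in both settings by 1.33 and 1.43 (log2, adjusted p = 3.18e-05 and 3.86e-06 from edgeR). *Itga6* was lower in culture (log2 fold change -1.15, adjusted p = 2.07e-05) and *Itga2*, a collagen receptor chain, lower in vivo (log2 fold change -1.66, adjusted p = 0.00121). *Clec1b* and *P2ry12*, receptors of mature platelets, stayed between 0 and 2.12 CPM in each library, though *Clec1b* was called higher in vivo (0.759 ± 0.16 to 1.78 ± 0.376 CPM, SD, n = 3 each, adjusted p = 0.0486 from edgeR). With any 1 in vivo library left out, only 5 or 6 receptor genes were called higher in vivo, 5 of them without shLuci replicate 2 or shRad21 replicate 3. With the replicate block 4 were lower in culture.

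Of 20 other granule and secretion genes, 8 were higher and 5 lower in culture (median 0.06), and 6 higher in vivo (median 0.19). *Clu*, which encodes the granule protein clusterin, had 4.54, 2.27, and 2.65 CPM in shLuci and 134, 120, and 122 CPM in shRad21 libraries in vivo (log2 fold change 5.31, SE 0.18, adjusted p = 4.69e-07 from edgeR). In culture it had 11.1, 15.1, and 20.2 against 30.5, 42.3, and 40.6 CPM, and the effects differed by -4.03 (log2, adjusted p = 1.66e-05 from edgeR). As for *Vwf*, the shLuci libraries in vivo were the lowest of the 4 groups, and here the shRad21 libraries in vivo were the highest. *Mmrn1*, which encodes multimerin in alpha granules, rose by 1.64 in culture and 1.51 in vivo (log2, adjusted p = 3.58e-05 and 0.000118 from edgeR), and *Rab27b*, a GTPase of granule secretion, by 1.55 and 1.45. *F13a1* and *Thbs1*, which monocytes also express, were lower in culture (log2 fold changes -2.25 and -1.87, adjusted p = 0.0202 and 0.00283 from edgeR). None was lower in vivo, where 1 was without shLuci replicate 3 and with every counted gene tested. The count of lower genes in culture was 3 without shLuci replicate 2 or shRad21 replicate 1, and 2 in the model of all 12 libraries.

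Genes of the proplatelet cytoskeleton and of platelet signalling were called in both directions. Of 12 cytoskeleton genes, 3 of 11 tested were higher in culture (*Zyx*, *Diaph1*, and *Flna*, by between 0.45 and 0.62 on the log2 scale, median of the list 0.04). In vivo, 5 of 10 were higher and *Tpm4* was lower by 3.04-fold (median 0.32). *Tubb1*, the tubulin of platelets, named after its values were seen, had between 0.0445 and 1.49 CPM in all 12 libraries and was no call in culture (log2 fold change -0.27, adjusted p = 0.628 from edgeR). In vivo, where it was too low to test, it had 1, 5, and 5 counts in shLuci and 18, 19, and 8 counts in shRad21 libraries. Of 18 signalling and enzyme genes, 7 were higher and 4 lower in culture (median 0.18), and 8 of 17 higher and 1 lower in vivo (median 0.45). *Rgs18*, a regulator of platelet G protein signaling, *Tln1*, *Gucy1a1*, and *Pde5a* were called higher in both settings. *Alox12*, the platelet lipoxygenase gene, had 6 counts in the 3 shLuci and 73 in the 3 shRad21 libraries in vivo. It passed the filter there through the shRad21 libraries alone, so it could be called only as higher. Cytoskeleton genes called higher in vivo numbered 2 without shLuci replicate 3 or shRad21 replicate 3, 3 without shLuci replicate 2, and 8 with every counted gene tested. Signalling genes called higher in culture numbered 2 without shRad21 replicate 2, 3 without shLuci replicate 1 or 2 or shRad21 replicate 3, and 4 in the model of all 12 libraries. In vivo they numbered 4 without shLuci replicate 2 or shRad21 replicate 3, and 5 without shRad21 replicate 2.

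**Figure D5:**
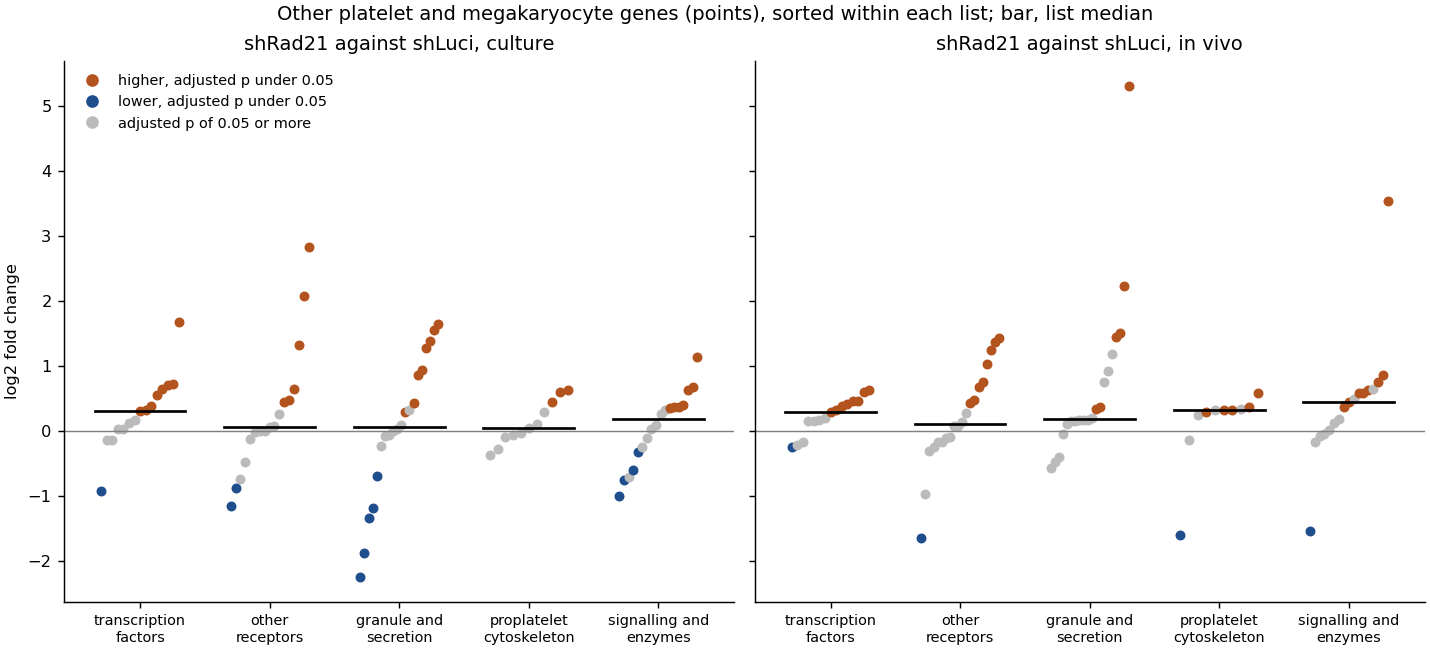
Log2 fold change of shRad21 against shLuci cells for each tested gene of 5 lists, sorted within a list, in culture (left) and in vivo (right); brown and blue points passed an adjusted p of 0.05 and bars are list medians. *Clu* is the highest point in vivo at 5.31, and *F13a1* the lowest in culture at -2.25.

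Some markers of cell types were called as well, beside 6.18% of all genes higher and 8.06% lower in culture, and 5.65% and 5.32% in vivo. Single calls in short lists cannot be told from these shares. Of 11 HSC markers, 6 were higher and 1 lower in culture, and 6 higher and 2 lower in vivo. Higher in both settings were 5, among them *Slamf1* (CD150), which rose by 1.21 and 2.05 on the log2 scale (adjusted p = 0.000803 and 2.18e-05 from edgeR). *Kit* was lower in both, from 741 ± 77.8 to 276 ± 14.7 CPM in culture and from 912 ± 62.3 to 672 ± 47.8 CPM in vivo (SD, n = 3 each). *Cd34* had 947 ± 30.5 and 1080 ± 38.6 CPM in shLuci and shRad21 cells in culture, and 1419 ± 59.2 and 1171 ± 76.2 CPM in vivo. The list of HSC markers shares 1 gene with that of the platelet receptors. Neutrophil and monocyte markers were lower for 6 of 6 tested genes in culture and 5 of 10 in vivo, and their sums ranged from 121 to 172 in shLuci and from 42.4 to 59.0 CPM in shRad21 cells in culture, and from 1674 to 2258 and from 1200 to 1438 CPM in vivo. Markers of erythroid cells, which share a progenitor with megakaryocytes, were lower for 1 of 3 tested genes in culture and 4 of 12 in vivo. Mast cell and basophil markers were higher for 1 of 6 and 3 of 8, and none was called lower. In vivo, *Mcpt8* (14.6 to 9.33 CPM) and *Ms4a2* (5.62 to 2.77 CPM) had lower means after knockdown. With the replicate block or DESeq2, 1 gene of this list was called lower in vivo. B cell and plasma cell markers were lower for 1 of 3 and 5 of 8, and T and NK cell markers lower for 1 of 2 and 1 of 4, with 1 higher in vivo. *Tpsb2* had 4, 5, and 4 counts in shLuci and 35, 20, and 115 in shRad21 libraries in vivo. *Pax5* had 27, 53, and 35 against 6, 4, and 3 counts there. Each passed the filter through 1 group alone, so it could be called only in the direction seen. Libraries left out in vivo moved the lower neutrophil and monocyte genes to 1 (shRad21 replicate 3), 2 (shLuci replicate 2), or 3 (replicate 1 of either group), the lower B cell genes to 3 (shLuci replicate 2 or 3, or shRad21 replicate 3), and the lower erythroid genes to 7 (shLuci replicate 1). In culture, the B cell and the T and NK cell calls were lost without shLuci replicate 2 or shRad21 replicate 1 or 2, and 3 mast cell genes were called higher with the replicate block. The part of these shifts in the levels of the platelet-lineage genes was not tested.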

How the data were processed

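RNA-seq of 12 libraries in 4 groups of 3 was analyzed. According to the study's methods, reads were depleted of rRNA, trimmed, mapped to GRCm38 with TopHat2, and counted with HTSeq (versions 2.0.11 and 0.6.1 in the submitters' processing notes). The authors deposited these counts without normalization, as whole numbers per gene. The strand setting and the annotation release are not given in the sources used here. Libraries were grouped by their labels, and no column was left out.

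Counts were scaled with TMM in edgeR 4.0.16 (R 4.3.3) and filtered with filterByExpr (minimum count 10, minimum total 15). The two-sided quasi-likelihood test of edgeR was run separately in culture and in vivo, and in all 12 libraries for the interaction and for control cells. P values were adjusted over all genes tested, with a threshold of 0.05. CPM values are TMM scaled, and levels per length use the union of GENCODE M21 exons, which matched 45229 of 46078 genes. DESeq2 1.42.0, other scalings and filters, a replicate block, a model of all 12 libraries, and leaving out each library were alternatives. The fits were tested on simulated data. Intervals and floors cover counting error only, since the reads carry no molecular identifiers and are not independent molecules.

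Same-numbered shLuci and shRad21 libraries deviated together in culture (r from 0.216 to 0.262 over 15543 genes, all above 0.1, for the 3 pairs). The numbers may therefore pair them there. In vivo, r was between 0.024 and 0.0694, which gave no such sign. The p values given are from fits without this pairing, in culture too, except where the replicate block is named. That block was an alternative only, and was run in both settings and for the interaction. The pairing comes from the data, since no label ties the numbers to a culture or animal.

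The genes and lists were chosen with earlier results of these data known. Named were all 10 members, *Rad21*, a gene that overlaps a member (*Sept5*), up to 4 called genes of each list and comparison with the largest log2 fold change, and for *Vwf*, *Itga2b*, and *Pf4* the 3 genes of most like profile with an average of at least 1 log2 CPM, of which 1 is not reported here. List genes called in both settings, marker genes, and *Tubb1* were named after their values were seen. Figures were drawn with Python 3.11.15 and matplotlib 3.10.9.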

Additional observations from a re-analysis of the deposited data

Results flagged for a closer look

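The knockdown effect of 3 platelet-lineage genes differed between the settings in the interaction test. For *Vwf* the difference, culture minus in vivo, was -2.35 (log2, adjusted p = 4.78e-05 from edgeR), and leaving out any 1 library gave between -2.46 and -2.13. For *Itgb3* it was -1.57 (adjusted p = 0.00306 from edgeR), with values between -1.75 and -1.38. For *Pf4*, whose estimates had opposite signs in culture and in vivo, it was -1.51 (adjusted p = 0.0178 from edgeR), with values between -1.82 and -1.22 and an adjusted p of 0.0524 without shLuci culture replicate 2. In each case the shRad21 libraries in culture and in vivo are set against controls of their own setting, which differ in kit and sort. Groups of 3 libraries are too small for a test of single outlying libraries.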

How the results depend on the processing

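Members kept the direction of their estimate under all alternatives run in both knockdown comparisons and between control cells. In the interaction, *Itga2b*, close to 0, reversed with 1 library left out, ranging from -0.12 to 0.22 on the log2 scale, and so did *Sept5* in culture (-0.058 to 0.18). With 1 library left out, genes called numbered from 1352 to 2817 in culture, from 951 to 1562 in vivo, and from 492 to 845 in the interaction, members called higher in culture from 3 to 6, and members called lower from 0 to 2. The model of all 12 libraries called 0 members lower in culture. With every counted gene tested, 2829 genes were called in vivo and 1409 in the interaction, and DESeq2 called 1256 in the interaction. All counts from the fit with every counted gene carry the limit given for its p values. With the longest transcript as length, 4 of the 8 genes kept their place in the order in shRad21 cells in culture. The replicate block raised the genes called in culture from 2213 to 3186 and left 6 members called higher and 2 lower. It changed 1 call among the members, that of *Ppbp* in the interaction (adjusted p = 0.0199 from edgeR). The causes of these changes were not tested. At this depth *Gp6* in both settings and *Gp1bb* in culture were too low to test.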
